A study of Mus musculus with 48 samples.

Results

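Signalling by transforming growth factor beta (TGF-beta), and the myofibroblast genes that are commonly read alongside it, were described through 10 genes. They comprise the ligands Tgfb1, Tgfb2 and Tgfb3, the receptors Tgfbr1 and Tgfbr2, the signal carrier Smad3, the inhibitor Smad7, the contractile genes Acta2 and Tagln, and the collagen crosslinking enzyme gene Lox. The genes were chosen by name, and each symbol matched 1 of the 56748 Ensembl identifiers in the count files. RNA sequencing had been done on 48 tissue samples of male littermate mice, hepAGT+/+ (here WT) and hepAGT-/- (here KO), the latter with a hepatocyte deletion of Agt, the gene of angiotensinogen, from which angiotensin peptides are cut. All mice ate a Western diet holding 21% milk fat and 0.2% cholesterol over 12 weeks, and lived at room temperature (RT), which was 20 to 22 °C, or at thermoneutrality (TN), 30 °C, a temperature that asks for little heat production of a mouse. Samples were liver, brown fat (BAT, brown adipose tissue) and epididymal fat (eWAT, epididymal white adipose tissue), taken in each of the 4 arms (WT RT, KO RT, WT TN and KO TN), which gave 12 groups of 4 libraries. The labels name neither the Cre driver of the deletion nor the age of the mice, all groups shared the Western diet, and samples are called biological replicates without a statement on pooling.

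TGF-beta ligands are secreted in a latent form, held in the matrix by latent TGF-beta binding proteins, and act on cells after release. The active ligand binds TGFBR2, which recruits and phosphorylates TGFBR1, and this kinase phosphorylates SMAD2 and SMAD3, which enter the nucleus with SMAD4. SMAD7 is itself induced by the signal and blocks the receptor, so it is widely used as a reading of pathway activity. In fibroblasts and related cells the pathway is known to switch on smooth muscle actin (Acta2), transgelin (Tagln) and lysyl oxidase (Lox), the set that marks myofibroblasts in fibrotic liver and fat. Acta2 and Tagln are also standing genes of vascular smooth muscle, so that in whole tissue their counts come from vessels as well.

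Acta2 and Tagln are known targets of serum response factor (SRF), which binds the CArG box, and the promoters were searched for that box because these genes moved together in brown fat below. Tagln, Tgfb3, Smad7 and Lox were not searched. The sequences come from RefSeq promoter windows of the GRCm38.p6 build (250 bases before to 50 after a gene's start). Windows were given for 6 of the 10 genes, Tgfb1, Tgfb2, Tgfbr1, Tgfbr2, Smad3 and Acta2, and for 12 of the 15 genes of a list of other contractile smooth muscle genes. The CArG box (10 bases, either strand) was present exactly in 1.63% of 32851 windows, and exactly or with 1 base off in 21.1%. None of the 7 windows of the 10 genes held an exact box, and 2 held one with 1 base off, those of Acta2 and Tgfbr2. Of the 13 windows of the contractile list, 2 held an exact box, those of Myl9 and Srf, and 5 held an exact or near box. The stretches of 30 bases below, read 5′ to 3′ on each gene's strand with the box in capitals, show the 2 near boxes of Acta2, the near box of Tgfbr2 and the exact boxes of Myl9 and Srf nearest the top of their windows. A match is a description of letters, and whether SRF binds there was not tested.
Acta2, first near box, chr19:34255438-34255467, minus strand: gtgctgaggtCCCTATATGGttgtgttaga
Acta2, second near box, chr19:34255388-34255417, minus strand: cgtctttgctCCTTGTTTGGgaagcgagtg
Tgfbr2, near box, chr9:116175417-116175446, minus strand: aatccagcggCCTTGATTGGcggccggagg
Myl9, exact box, chr2:156775293-156775322, plus strand: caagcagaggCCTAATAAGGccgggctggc
Srf, exact box, chr17:46556225-46556254, minus strand: ctggggctcgCCATATAAGGagcggcctcg
The boxes of Acta2 began 84 and 34 bases before its start, that of Tgfbr2 73, that of Myl9 161 and that of Srf 82 bases before.

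In GENCODE M21 on GRCm38, Tgfb1 (ENSMUSG00000002603) lies on chromosome 7 from 25687002 to 25705077, Tgfb2 (ENSMUSG00000039239) on chromosome 1 from 186622792 to 186705989, and Tgfb3 (ENSMUSG00000021253) on chromosome 12 from 86056745 to 86079041. Tgfbr1 (ENSMUSG00000007613) lies on chromosome 4 from 47353222 to 47414931, and Tgfbr2 (ENSMUSG00000032440) on chromosome 9 from 116084293 to 116175360. Smad3 (ENSMUSG00000032402) and Tagln (ENSMUSG00000032085) lie on chromosome 9 as well, from 63646767 to 63757994 and from 45929619 to 45936058. Acta2 (ENSMUSG00000035783) lies on chromosome 19 from 34241090 to 34255590, and Smad7 (ENSMUSG00000025880) and Lox (ENSMUSG00000024529) on chromosome 18 from 75367529 to 75395935 and from 52516067 to 52529867. Exons of Tagln overlap those of Pcsk7 on the opposite strand, and exons of Tgfb2, Tgfb3 and Lox overlap unnamed or antisense transcripts there. Whether strand was used in counting is not stated in the sources used here, so reads of such partners cannot be told apart. Acta2 also shares most of its coding sequence with the other muscle actins Actg2 and Acta1, and its values are uncertain to the extent that counting split reads between them.

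Levels are given as CPM, counts per 1000000 counts of a library, on library sizes scaled within each tissue with TMM (edgeR's trimmed mean method). A mean ± SD is over a group's 4 libraries. Changes are log2 fold changes from edgeR's quasi-likelihood test with their standard error (SE), and a gene was called when its p was under 0.05 after Benjamini-Hochberg adjustment across the genes tested. A 95% interval of a change spans 1.96 SE on either side. A library's total was 23.7 to 36.5 M in liver (M, 1000000 counts), 25.3 to 39.4 M for BAT and 28.7 to 43.7 M for eWAT. In liver, Agt ranged from 254 to 455 CPM of plain totals in WT libraries and from 133 to 213 in KO libraries, without overlap, and it stayed well above 0 in KO. In eWAT, where the labels give no deletion, Agt was higher in KO without overlap, at 131 to 194 CPM against 62.6 to 124 in WT at RT and at 133 to 238 against 9.09 to 130 at TN. Which part of the gene was deleted is not given in the sources used here. Summed markers of the labelled tissue were high in each tissue, at 54438 to 92808 CPM for hepatocytes in liver and 2257 to 10863 CPM for brown adipocytes in BAT, against 2.31 to 13.7 CPM for brown adipocytes in eWAT. Libraries that stood apart were eWAT WT RT replicate 18, with 969 CPM of epididymis markers against at most 20.4 CPM in the other eWAT libraries, eWAT WT TN replicate 8, with 2.07 CPM of mesothelial markers against at least 19.6 CPM, and 6 BAT libraries with over 1000 CPM of skeletal muscle markers. P-values set a difference of group means against the spread between these samples. In whole tissue, fewer cells of a type and less RNA per cell cannot be told apart.

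The 10 genes differed widely in where they were expressed. On a TMM scale over all 48 libraries and averaged over the 4 arms, most were highest in eWAT, Tgfbr2 was highest in BAT, and Tgfbr1 and Smad7 were highest in liver, Smad7 without a difference past the threshold from eWAT. All 10 differed between BAT and eWAT (60.3% of genes tested were called in that comparison), 9 of 10 between liver and eWAT (73.8%) and 8 of 10 between liver and BAT (68.6%), shares that are to be read against those high backgrounds.

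**Figure D1:**
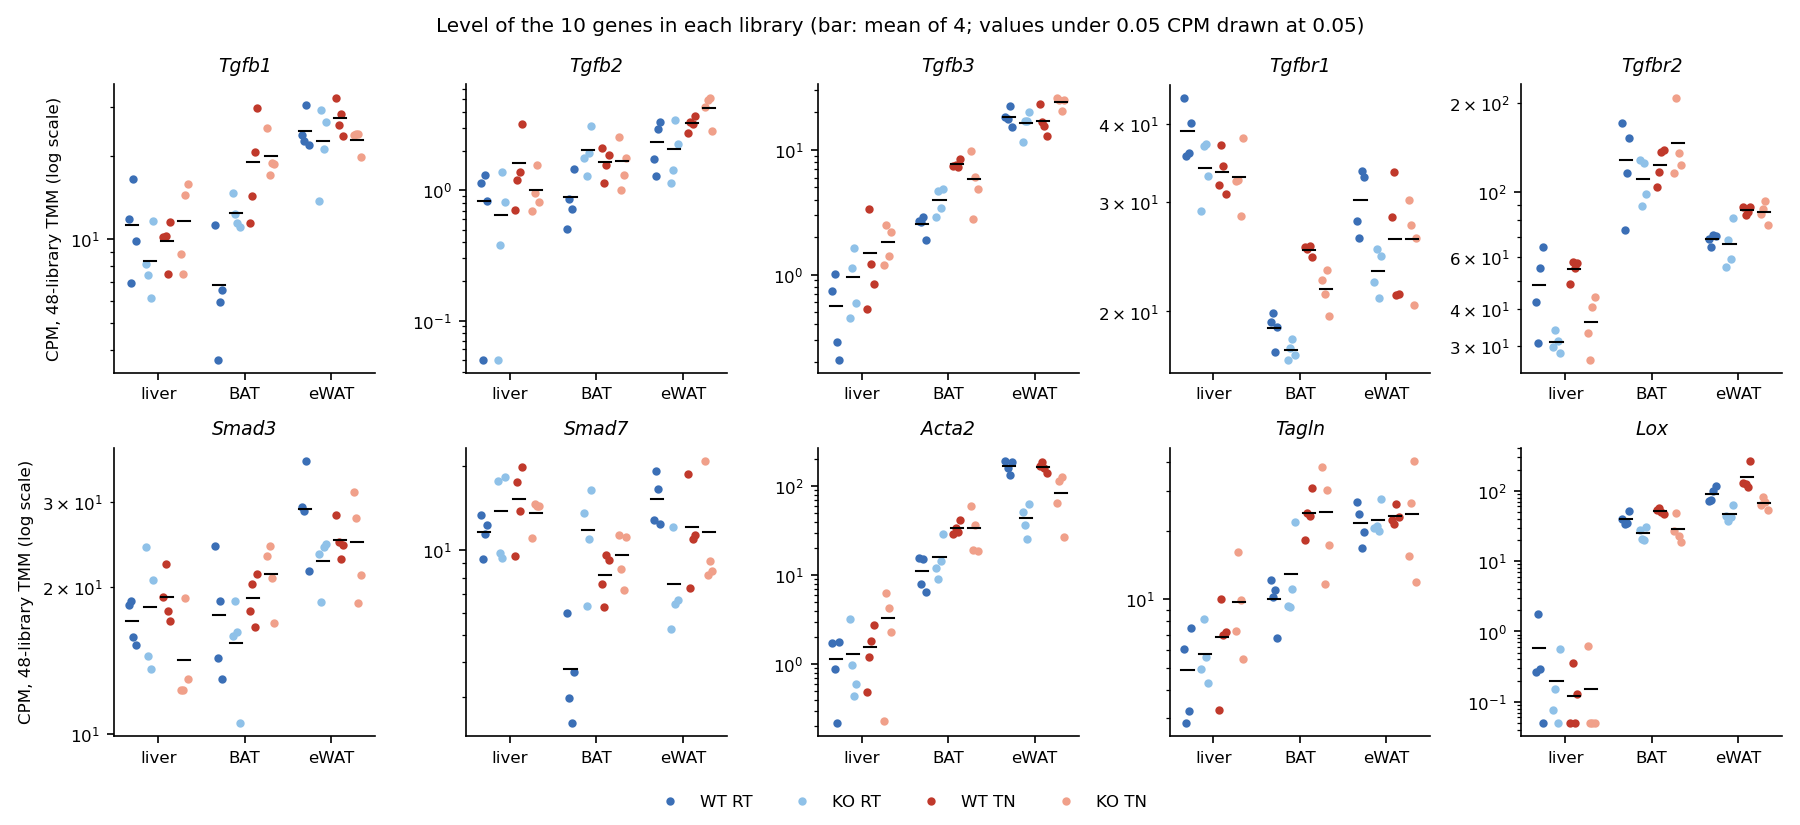
The level of each of the 10 genes in the 48 libraries, as CPM on a TMM scale over all libraries (log axis), by tissue and arm, with 1 point per library and a bar at the mean of 4. Acta2 and Lox span the widest range between tissues, Lox lies below 2 CPM in every liver library, and the WT RT libraries of brown fat lie low for Tgfb1, Tgfb3, Smad7, Acta2 and Tagln.

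Among the ligands, Tgfb1, the broadly expressed form, stood at 24.4 ± 4.5 CPM in eWAT (SD, n = 16), 14.5 ± 6.9 in BAT and 10.3 ± 3.2 in liver. Tgfb3 had a steeper order, 19.0 ± 4.4 CPM in eWAT, 5.02 ± 2.5 in BAT and 1.21 ± 0.86 in liver. Tgfb2 was the lowest of the ligands in each tissue, at 3.00 ± 1.2 CPM in eWAT, 1.56 ± 0.69 in BAT and 1.02 ± 0.74 in liver. Its liver and BAT levels did not differ past the threshold (log2 difference -0.63, SE 0.32, adjusted p = 0.0812). Compared per kilobase of exon, which allows genes to be ranked, Tgfb3 in eWAT (5.63 ± 1.3 CPM per kilobase) stood close to Tgfb1 (4.83 ± 0.89), while in liver it stood far below it (0.357 ± 0.25 against 2.04 ± 0.63).

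The receptors had different orders. Tgfbr2, the ligand-binding receptor, was at 127 ± 32 CPM in BAT, 76.9 ± 11 in eWAT and 42.6 ± 12 in liver. Tgfbr1, the kinase it recruits, was at 34.8 ± 4.1 CPM in liver, 26.4 ± 4.5 in eWAT and 20.7 ± 3.2 in BAT. Per kilobase, Tgfbr2 was therefore several times Tgfbr1 in BAT (15.5 ± 3.9 against 3.17 ± 0.49 CPM per kilobase) and level with it in liver (5.20 ± 1.5 against 5.33 ± 0.63).

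Smad3, which carries the signal to the nucleus, was at 25.4 ± 4.7 CPM in eWAT, 18.3 ± 4.0 in BAT and 17.1 ± 3.6 in liver. Its liver and BAT levels did not differ past the threshold (log2 difference -0.10, 95% interval -0.29 to 0.10, adjusted p = 0.404). Smad7, the feedback inhibitor, was at 13.5 ± 3.4 CPM in liver, 11.6 ± 4.9 in eWAT and 8.33 ± 3.8 in BAT. Its liver and eWAT levels did not differ past the threshold (log2 difference 0.26, 95% interval -0.05 to 0.56, adjusted p = 0.136).

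The contractile and matrix genes had the largest differences between tissues. Acta2 was at 115 ± 61 CPM in eWAT, 23.8 ± 15 in BAT and 1.83 ± 1.7 in liver, a log2 difference between liver and eWAT of -5.91 (SE 0.35). Lox, which crosslinks collagen and elastin, was at 90.1 ± 55 CPM in eWAT and 36.4 ± 13 in BAT, while liver libraries held at most 1.76 CPM and several held no count. Tagln, an actin-binding protein of smooth muscle, was spread more evenly, at 22.7 ± 6.4 CPM in eWAT, 17.8 ± 9.3 in BAT and 6.81 ± 3.3 in liver. In eWAT, Acta2 exceeded Tagln per kilobase (52.4 ± 28 against 11.4 ± 3.2 CPM per kilobase), and in liver it lay below it (0.832 ± 0.76 against 3.43 ± 1.7).

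By edgeR, housing temperature gave calls among these genes only in brown fat, the tissue that burns fuel for heat and is less active at thermoneutrality. Whether a change differed between tissues was tested separately and is given further below. In WT mice, 6 of the 10 genes were higher at TN than at RT and none was lower. Of the 18032 genes tested in BAT, 32.5% were called and 15.9% were called as higher. The 6 were Tgfb1, Tgfb3, Tgfbr1, Smad7, Acta2 and Tagln, and in each of them the 4 TN libraries lay above the 4 RT libraries. How many of all genes tested were separated in this way was not counted, in this or in the other comparisons. Their fold ran from 1.33 for Tgfbr1 to 3.01 for Tgfb3. The other members, Tgfb2, Tgfbr2, Smad3 and Lox, were not called. The median log2 change was 1.01 over the 10 genes and 0.11 over all genes tested.

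Tgfb1 in BAT stood at 10.5, 3.45, 5.60 and 6.10 CPM in the WT RT libraries and at 10.6, 13.5, 19.1 and 27.2 CPM in the WT TN libraries. The groups touched without overlapping, since the highest RT library reached nearly the lowest TN library. The log2 change was 1.45 (SE 0.30, edgeR adjusted p = 0.0015). Tgfb3 stood at 2.54, 2.48, 2.72 and 1.77 CPM at RT and at 6.90, 7.20, 6.78 and 7.74 CPM at TN. Here the groups were tight and far apart, with a log2 change of 1.58 (SE 0.31, edgeR adjusted p = 0.000972). Tgfb2 stood at 0.475, 0.804, 0.680 and 1.36 CPM at RT and at 1.95, 1.08, 1.45 and 1.71 CPM at TN. It was low in both with ranges that overlapped, and its log2 change of 0.91 (SE 0.44) was not called (edgeR adjusted p = 0.122).

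Of the receptors, Tgfbr1 moved from 17.6 ± 1.0 to 23.4 ± 0.60 CPM, a small change with little spread (log2 change 0.41, SE 0.11, edgeR adjusted p = 0.0101). Tgfbr2, the more abundant receptor of this tissue, stood at 120 ± 40 and 115 ± 15 CPM and was not called. Smad7 stood at 5.59, 2.78, 2.28 and 3.44 CPM at RT and at 7.05, 5.94, 8.95 and 8.49 CPM at TN. Every TN library was above every RT library (log2 change 1.11, SE 0.30, edgeR adjusted p = 0.00846). Smad3 stood at 16.4 ± 4.8 and 17.7 ± 2.0 CPM, with ranges that overlapped.

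Acta2 stood at 14.6, 7.40, 14.1 and 6.10 CPM at RT and at 27.1, 31.9, 28.7 and 38.7 CPM at TN in WT. Tagln stood at 11.4, 9.58, 10.3 and 6.31 CPM at RT and at 16.9, 22.6, 21.6 and 28.3 CPM at TN. For both genes the TN libraries lay wholly above the RT libraries, with log2 changes of 1.58 (SE 0.44, edgeR adjusted p = 0.0137) and 1.25 (SE 0.35, edgeR adjusted p = 0.0125). Lox, at 37.4 ± 7.7 and 48.2 ± 4.3 CPM, was not called (log2 change 0.37, SE 0.24).

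**Figure D2:**
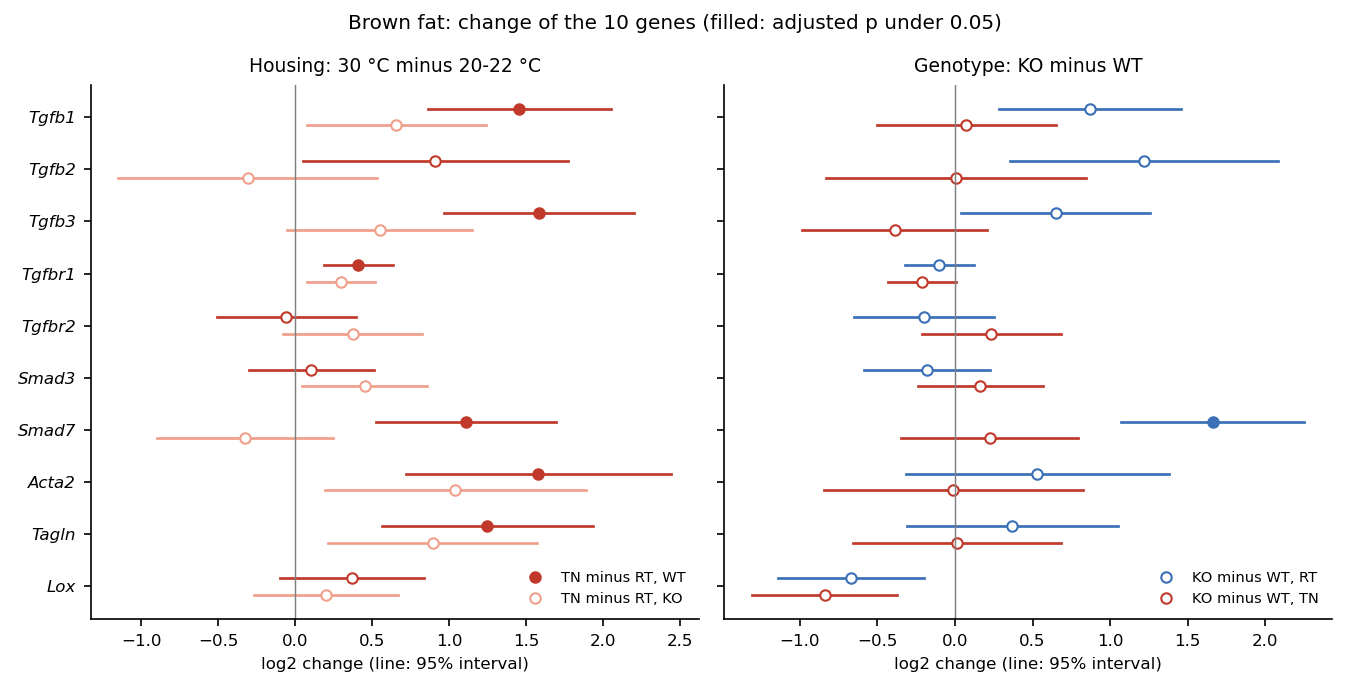
The log2 change of each of the 10 genes in brown fat, with TN minus RT in WT and in KO on the left and KO minus WT at RT and at TN on the right, as a point with its 95% interval (filled where the adjusted p was under 0.05). On the left 6 WT points are filled and no KO point is, and on the right the point of Smad7 at RT is filled.

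In KO mice none of the 10 genes was called between TN and RT in BAT, where 15.2% of genes tested were called. Of the 10 log2 changes, 8 were above 0. The SD between libraries was wider in KO than in WT for some genes and narrower for others. At TN it was 18 CPM in KO against 5.1 in WT for Acta2, and 3.4 against 7.3 for Tgfb1. Acta2 stood at 11.4, 8.52, 13.8 and 27.4 CPM in KO RT and at 56.4, 18.0, 33.9 and 17.1 CPM in KO TN, and these ranges overlapped (log2 change 1.04, SE 0.43, edgeR adjusted p = 0.129). Tagln had a log2 change of 0.89 (SE 0.35, edgeR adjusted p = 0.0984), and KO RT replicate 9 was its highest RT library at 20.6 CPM. Without that library the log2 changes of Acta2 and Tagln were 1.48 and 1.27, and both were called by edgeR (adjusted p = 0.0307 and 0.0171). DESeq2 called Acta2, Tagln and Tgfbr1 in this comparison with all libraries. Tgfb1 and Tgfbr1 had KO TN libraries wholly above KO RT libraries, with log2 changes of 0.66 (SE 0.30) and 0.30 (SE 0.11), and neither was called (edgeR adjusted p = 0.155 and 0.0873).

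The difference between the housing changes of KO and WT was itself tested as an interaction, and it was not called for any of the 10 genes or for any other gene in BAT (0% of genes tested by edgeR; 1832 genes had an unadjusted p under 0.05, and DESeq2 called 21 genes, none of the 10). The largest interaction among the 10 was that of Smad7, -1.44 on the log2 scale (SE 0.42, edgeR adjusted p = 0.443). That of Tgfb3 was -1.04 (SE 0.44, edgeR adjusted p = 0.474) and that of Acta2 -0.54 (SE 0.61, edgeR adjusted p = 0.768). So the calls in WT and their absence in KO are not shown to be a difference between the genotypes.

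Genes around the pathway, taken from 5 lists, are given beside the shares of all genes called in BAT, 32.5% in WT (15.9% as higher) and 15.2% in KO. In the ligand handling and receptor list, 7 of 13 genes were higher at TN and 1 was lower (median log2 change 1.17, against 0.11 over all genes tested). Thrombospondin 1 (Thbs1), which can release latent TGF-beta, went from 3.73 ± 2.9 to 27.0 ± 7.3 CPM (log2 change 2.86, SE 0.60, edgeR adjusted p = 0.00259). Nrros and Lrrc32, which hold latent TGF-beta at the cell surface, had log2 changes of 1.74 and 1.63, and the latent binding protein gene Ltbp2 fell by 0.55. In KO, 3 of 13 were higher, led by Thbs1 (log2 change 3.06, SE 0.60, edgeR adjusted p = 0.00407), with Nrros (1.08) and the co-receptor gene Tgfbr3 (0.58), and none was lower.

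Of 16 Smads and Smad regulators, 5 were higher and none lower in WT (median log2 change 0.18), a count of calls near the share of all genes called. Smad1, a carrier of bone morphogenetic protein signals, went from 8.42 ± 2.0 to 26.0 ± 8.4 CPM (log2 change 1.62, SE 0.29, edgeR adjusted p = 0.000498), and the inhibitors Bambi and Ski had log2 changes of 1.42 and 0.78. In KO 2 of 16 were higher, again near that share, Smad1 (1.12) and Smad5 (0.49), both of the bone morphogenetic protein branch.

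Of 15 TGF-beta response genes, 9 were higher and 1 lower in WT (median log2 change 1.32). The matricellular gene Ccn2 went from 1.67 ± 0.34 to 10.7 ± 2.8 CPM (log2 change 2.68, SE 0.39, edgeR adjusted p = 9.07e-05). Its relative Ccn1 had a log2 change of 2.89, and Id2 fell by 1.21. In KO 6 of 15 were higher and none lower (median 0.56), with log2 changes of 2.51 for Ccn1 and 2.15 for Junb among them. Several of these, Ccn1 and Junb among them, are also early response genes of stimulated or handled tissue.

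Of 15 other contractile smooth muscle genes, 14 were tested in BAT, and 8 were higher and none lower in WT (median log2 change 1.45). Synpo2, Lmod1 and Smtn, an actin cross-linker, an actin nucleator and smoothelin, had log2 changes of 2.45, 2.42 and 2.09. In KO none of the 14 was called (median log2 change 0.49). Of 10 genes of the lysyl oxidase family and collagen crosslinking, 7 were higher in WT and none lower, led by Eln (elastin, 1.66), Bmp1 (which cleaves procollagen and pro-lysyl oxidase, 1.28) and Fbn1 (fibrillin, 1.23). In KO 3 of 10 were higher, Loxl2 (1.10), Plod3 (0.65) and Plod1 (0.38), and Loxl1 fell by 1.20. Without the 6 BAT libraries rich in skeletal muscle markers, the KO calls over all genes were 867 in place of 2735. In the ligand handling list they were then 1 in place of 3, among the Smads 0 in place of 2 and among the response genes 1 in place of 6. In the contractile list they were 1 in place of 0, and in the crosslinking list 1 in place of 4. That fit held fewer than 4 libraries in each of KO RT, KO TN and WT TN. Fewer libraries and less muscle therefore cannot be told apart in these counts.

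Markers of several cell types moved with these calls in WT BAT. Called as higher at TN were 5 of 6 macrophage markers, 5 of 7 endothelial markers, 4 of 7 vascular smooth muscle markers, 3 of 7 pericyte markers and 3 of 8 fibroblast and progenitor markers, and 3 of 4 brown adipocyte markers were lower. The summed vascular smooth muscle markers ran from 53.4 to 70.9 CPM of plain totals in WT RT and from 115 to 349 in WT TN, and the summed macrophage markers from 40.0 to 108 and from 178 to 430. In KO BAT, 5 of 6 macrophage markers and 3 of 8 fibroblast and progenitor markers were called as higher at TN and 3 of 4 brown adipocyte markers as lower, and no vascular smooth muscle, endothelial or pericyte marker was called. There the summed macrophage markers ran from 47.5 to 53.8 CPM at RT and from 163 to 225 at TN. The list of smooth muscle markers shares genes with the contractile list. Skeletal muscle markers ran from 1.66 to 427 CPM in WT RT and from 9.33 to 5329 in WT TN. Their part in the result was not tested, other than by leaving out the 6 muscle-rich libraries. Without these, none of which was a WT RT library, 5 of the 10 genes were called in WT, and 5025 of all genes in place of 5867. The log2 changes were 1.68 for Acta2, 1.41 for Tagln, 1.86 for Tgfb1 and 1.61 for Tgfb3, and Tgfbr1 was not called (0.40, edgeR adjusted p = 0.0957).

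The scale bears on this comparison. Between WT TN and WT RT in BAT the median log2 ratio of all genes of at least 1 CPM was 0.04 under TMM and 0.58 under plain library totals, so changes here are relative to the TMM scale. Of the 10 genes Tgfbr2 had a lower TN than RT mean under TMM, without a call, and under plain totals its TN mean was the higher. Between KO TN and KO RT in BAT the median log2 ratio was 0.03 under TMM and 0.41 under plain totals. The marker sums of BAT are on plain totals, so their ranges at TN and RT include this shift. Calls of single markers were made on the TMM scale.

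Genotype was compared next within each housing temperature, which asks whether loss of hepatocyte angiotensinogen went with a change of these genes in the tissue. In BAT at RT, Smad7 was the 1 of 10 genes called (0.0887% of genes tested were called). It stood at 5.59, 2.78, 2.28 and 3.44 CPM in WT and at 12.9, 5.98, 10.4 and 15.4 CPM in KO. Every KO library was above every WT library, by a log2 change of 1.66 (SE 0.30). The adjusted p of 0.0499 lay at the threshold, and with RLE scaling (DESeq2's relative log expression) in place of TMM it was 0.0548. Over the fits that left out 1 library, its log2 change ran from 1.46 to 1.98, and 12 of these 16 fits ended the call. Without the 6 muscle-rich libraries it was 1.97 (edgeR adjusted p = 0.0131). All 7 endothelial markers had log2 changes above 0 in this comparison (median 1.17), with sums of 157 to 508 CPM in WT and 453 to 933 in KO. So had 6 of 7 vascular smooth muscle markers (median 0.98; sums of 53.4 to 70.9 and 63.0 to 211 CPM) and all 8 skeletal muscle markers, and no marker of these lists was called. The part of the endothelial and smooth muscle cells in the result was not tested.

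The ligands in the same comparison had higher means in KO without a call. Tgfb1 was at 6.42 ± 3.0 CPM in WT and 11.7 ± 1.6 in KO (log2 change 0.87, SE 0.30, edgeR adjusted p = 0.143), and without WT RT replicate 12, its highest WT library, the log2 change was 1.22 and called (edgeR adjusted p = 0.0155). Tgfb2 had a log2 change of 1.22 (SE 0.44, edgeR adjusted p = 0.156) and Tgfb3 one of 0.65 (SE 0.31, edgeR adjusted p = 0.258). Lox went the other way, at 37.3, 31.8, 32.2 and 48.3 CPM in WT and 26.4, 19.6, 18.9 and 29.0 CPM in KO. Its libraries did not overlap, and the log2 change of -0.67 (SE 0.24) was not called (edgeR adjusted p = 0.155).

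At TN none of the 10 genes was called between KO and WT in BAT, and neither was any other gene (0% of genes tested by edgeR; 945 genes had an unadjusted p under 0.05, and DESeq2 called 20 genes, none of the 10). Lox had the lowest p of the 10, at 48.2 ± 4.3 CPM in WT and 26.9 ± 12 in KO (log2 change -0.84, SE 0.24, edgeR adjusted p = 0.633). KO TN replicate 3, at 44.6 CPM, was the 1 KO library within the WT range, and the other KO libraries held 16.9 to 25.0 CPM. Acta2 and Tagln were level, at 31.6 ± 5.1 and 31.4 ± 18 CPM and at 22.4 ± 4.7 and 22.6 ± 11 CPM in WT and KO.

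Epididymal fat gave the largest genotype change of the set, in Acta2. At RT it stood at 238, 202, 163 and 232 CPM in WT and at 63.4, 46.9, 31.2 and 77.6 CPM in KO. The WT libraries lay far above the KO libraries, with a log2 change of -1.93 (SE 0.39, edgeR adjusted p = 0.0167). Acta2 was the 1 of 10 genes called, where 4.34% of genes tested were called and 3.13% as lower. The change was -1.85 without WT RT replicate 18, the library with epididymis markers, and it was then not called (edgeR adjusted p = 0.0554). Without KO RT replicate 19 it was -1.73 (edgeR adjusted p = 0.0523), and over all fits without 1 library it ran from -2.13 to -1.73.

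Tagln did not move with it. It stood at 33.1, 29.6, 20.7 and 24.8 CPM in WT RT and at 25.7, 27.0, 24.6 and 34.1 CPM in KO RT, with ranges that overlapped and a log2 change of 0.04 (95% interval -0.50 to 0.58). In raw counts, Acta2 was 6.82 to 9.35 times Tagln in the WT RT libraries and 1.27 to 2.46 times in the KO RT libraries. At TN the ratio was 6.11 to 8.81 in WT and 2.26 to 4.32 in KO. The ratio was compared after both genes' values had been seen, and is given as a description.

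**Figure D3:**
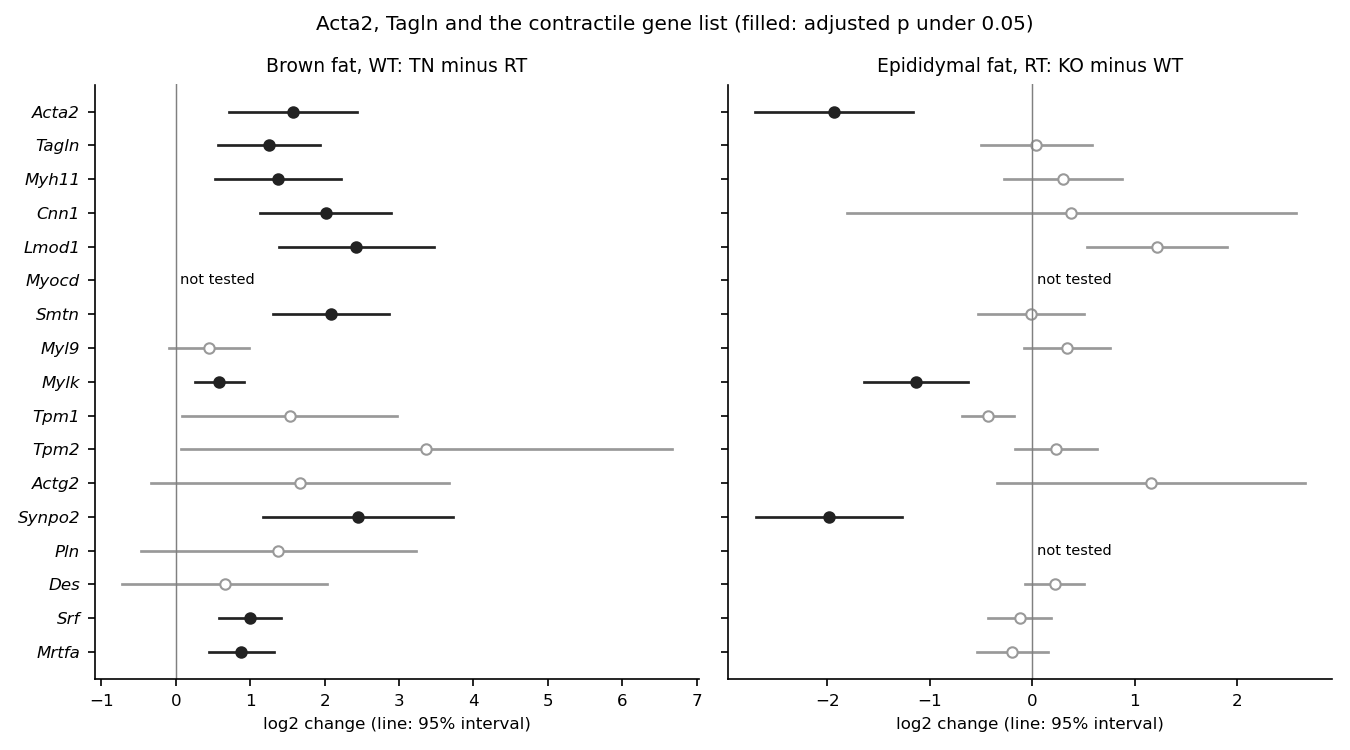
The log2 change of Acta2, Tagln and the 15 genes of the contractile list, as points with 95% intervals (filled where the adjusted p was under 0.05), for TN minus RT in WT brown fat on the left and for KO minus WT in eWAT at RT on the right. In brown fat every tested point lies above 0, whereas in eWAT Acta2, Mylk and Synpo2 lie below 0 with filled points and Tagln lies at 0.

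Of the 15 other contractile genes, 13 were tested in eWAT, and at RT 2 were lower in KO and none higher. Synpo2 went from 314 ± 140 to 79.4 ± 32 CPM (log2 change -1.99, SE 0.36, edgeR adjusted p = 0.00959) and Mylk, myosin light chain kinase, from 156 ± 32 to 71.3 ± 3.9 CPM (log2 change -1.13, SE 0.26, edgeR adjusted p = 0.0236). The other tested genes of the list gave no call. Of these, 7 had log2 changes above 0, from 0.22 for Des to 1.22 for Lmod1 (edgeR adjusted p = 0.488 and 0.0553), with 0.30 for Myh11 and 0.34 for Myl9. The remaining members were below 0, with -0.43 for Tpm1 (edgeR adjusted p = 0.0655), -0.19 for Mrtfa, -0.12 for Srf and -0.01 for Smtn. The median over the list was 0.22, and over all genes tested -0.0021. Of 7 vascular smooth muscle markers 6 were tested and 1 was called, Synpo2, and the summed markers ran from 249 to 528 CPM in WT RT and from 88.8 to 189 in KO RT. Synpo2 is the largest part of that sum, and 5 of the 6 tested markers had log2 changes above 0 (median 0.34). The part of smooth muscle cells in the result was not tested.

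The Lox libraries of eWAT lay lower in KO at both temperatures. At RT it stood at 88.6, 92.8, 124 and 144 CPM in WT and at 54.9, 47.6, 53.0 and 76.9 CPM in KO. The groups did not overlap, and the log2 change of -0.95 (SE 0.26) missed the threshold by little (edgeR adjusted p = 0.0531), while DESeq2 called it. At TN it stood at 159, 153, 138 and 330 CPM in WT and at 77.0, 101, 84.6 and 66.9 CPM in KO. Again no library overlapped, and Lox was the 1 of 10 genes called (log2 change -1.24, SE 0.26, edgeR adjusted p = 0.0466, where 0.586% of genes tested were called). The summed macrophage markers did not overlap at TN either, at 1096 to 1794 CPM in WT and 838 to 995 in KO, and all 6 had log2 changes below 0 (median -0.79) without a call. Their part in the result was not tested. The library at 330 CPM was WT TN replicate 8, which stood apart by its mesothelial markers. Without both eWAT libraries that stood apart, the log2 changes were -0.78 at RT and -0.86 at TN, and both were called (edgeR adjusted p = 0.025 and 0.015). With all libraries, 13 of the 16 fits that left out 1 of them ended the call at TN, at log2 changes from -1.37 to -1.15.

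**Figure D4:**
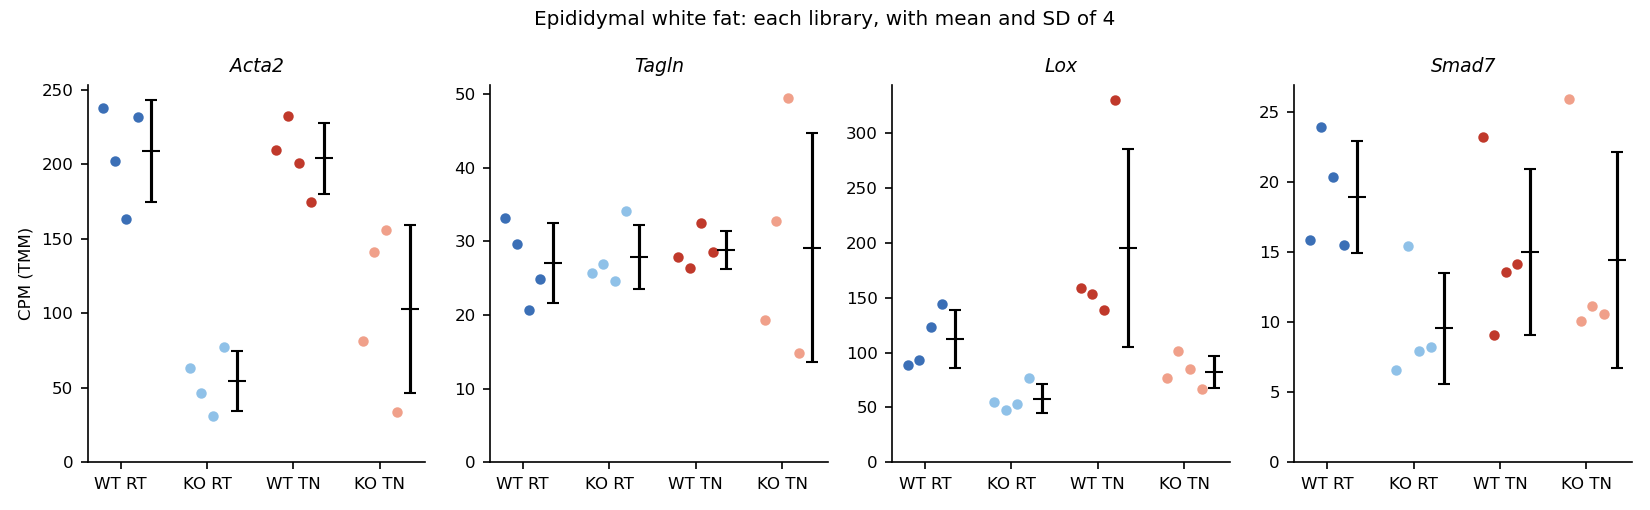
CPM of Acta2, Tagln, Lox and Smad7 in each eWAT library by arm, with the mean and SD of 4. The KO libraries of Acta2 and Lox lie below the WT libraries of the same housing, the Tagln libraries of KO and WT overlap, and 1 WT TN library of Lox stands at 330 CPM.

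Acta2 at TN was 209, 232, 201 and 175 CPM in WT and 81.3, 142, 156 and 33.6 CPM in KO. The groups did not overlap, and the log2 change of -0.99 (SE 0.38) was not called (edgeR adjusted p = 0.272). The interaction of genotype and housing was not called for any of the 10 genes in eWAT, nor for any other gene (0% of genes tested by edgeR; 1439 genes had an unadjusted p under 0.05, and DESeq2 called 12 genes, none of the 10), and that of Acta2 was 0.95 (SE 0.54, edgeR adjusted p = 0.703). So the sizes of the Acta2 change at RT and TN are not shown to differ.

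Smad7 in eWAT at RT stood at 15.9, 23.9, 20.4 and 15.5 CPM in WT and at 6.57, 15.4, 7.96 and 8.26 CPM in KO. No KO library reached the WT range, the closest pair being nearly level (log2 change -0.98, SE 0.35, edgeR adjusted p = 0.134), and DESeq2 called it (adjusted p = 0.0436). Tgfbr1 did not overlap either, at 37.5 ± 4.5 and 29.1 ± 2.7 CPM, without a call (log2 change -0.36, SE 0.15, edgeR adjusted p = 0.215). The ligands Tgfb1, Tgfb2 and Tgfb3 and the receptor Tgfbr2 had log2 changes between -0.17 and -0.05 there, all with overlapping libraries. Smad3, at 36.0 ± 7.3 and 28.4 ± 3.1 CPM, was not called (edgeR adjusted p = 0.292).

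The neighbouring genes in eWAT at RT gave few calls, all lower in KO, where 4.34% of all genes tested were called and 3.13% as lower. They included Ltbp3 in the ligand handling list (log2 change -0.61, 1 of 12 tested), Smad6, the inhibitor most like Smad7, among the Smads (-0.71, 1 of 16, a share near that of all genes), periostin (Postn) among the response genes (-0.97, 2 of 15 called), and Bmp1 and the lysyl hydroxylase gene Plod1 in the crosslinking list (-0.64 and -0.50, 2 of 10). Without the 2 libraries that stood apart, none was called in the first 3 of these lists, 2 in the contractile list and 1 in the crosslinking list. Over all genes 357 were then called in place of 821. At TN no gene of the 5 lists was called between KO and WT. Of the macrophage markers 1 of 6, Cd68, was lower in KO at RT (log2 change -0.87, edgeR adjusted p = 0.0485), and the summed macrophage markers ran from 701 to 987 CPM in WT RT and from 518 to 718 in KO RT. The summed mesothelial markers ran from 29.4 to 152 CPM in WT RT and from 19.6 to 83.6 in KO RT, and none of these markers was called. The part of these cells in the result was not tested.

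Housing called none of the 10 genes in eWAT. In WT no gene at all was called between TN and RT (0% of genes tested by edgeR; 1324 genes had an unadjusted p under 0.05, and DESeq2 called 100 genes, none of the 10), and in KO 1.74% of genes were. In KO, Acta2 went from 54.8 ± 20 to 103 ± 56 CPM (log2 change 0.91, SE 0.38, edgeR adjusted p = 0.236), and without KO TN replicate 5, its lowest TN library, the change was 1.20 and called (edgeR adjusted p = 0.0311). Tgfbr2 rested at 83.0 ± 14 and 106 ± 6.9 CPM (log2 change 0.35, SE 0.11, edgeR adjusted p = 0.0939) and was called without KO RT replicate 9 (0.45, edgeR adjusted p = 0.0394). In WT, Tgfbr2 was 81.0 to 88.6 CPM at RT and 103 to 111 CPM at TN, without overlap and without a call (log2 change 0.32, SE 0.11, edgeR adjusted p = 0.447). From the lists, KO eWAT had more Synpo2 (1.90), Postn (0.84), Tgfbi (0.54), the endothelial receptor gene Acvrl1 (0.60), and Eln (1.12), Fbn1 (0.96) and Bmp1 (0.53) at TN than at RT, and no list gene was lower. In the same comparison 2 of 6 macrophage markers were called as higher, with sums of 518 to 718 CPM at RT and 838 to 995 at TN. All 6 mesothelial markers had log2 changes above 0 (median 1.40) without a call, with sums of 19.6 to 83.6 CPM at RT and 83.5 to 174 at TN. Their part in these calls was not tested. Of the list genes, Synpo2, Postn and Bmp1 were also among the genes lower in KO than in WT at RT, and both comparisons share the KO RT libraries.

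In liver none of the 9 genes tested was called in any comparison, Lox being too low to test. The shares of all genes called there were 0.0853% for KO minus WT at RT, 3.18% at TN, 0.0227% for TN minus RT in WT, 0.114% in KO and 0% for the interaction, with 1799, 3099, 1276, 1849 and 1290 genes at an unadjusted p under 0.05, and DESeq2 called none of the 9 either. Tgfbr2 came nearest. It stood at 41.3, 48.7, 46.6 and 49.3 CPM in WT TN and at 28.5, 23.2, 35.5 and 38.9 CPM in KO TN. The KO libraries all lay below the WT libraries (log2 change -0.56, SE 0.18, edgeR adjusted p = 0.0922). At RT it stood at 41.8 ± 13 CPM in WT and 26.6 ± 1.9 in KO, where 1 WT library fell within the KO range (log2 change -0.65, SE 0.18, edgeR adjusted p = 0.166).

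The other liver values showed little movement or little depth. Tgfb1 was between 7.17 and 10.2 CPM on average in the 4 liver groups, Tgfbr1 between 28.4 and 33.7, Smad3 between 12.3 and 16.2 and Smad7 between 10.0 and 12.9. Acta2 in liver was 0.999 ± 0.64 CPM in WT RT, 1.12 ± 1.1 in KO RT, 1.33 ± 0.82 in WT TN and 2.85 ± 2.3 in KO TN, and its 95% interval for KO minus WT at TN ran from -0.47 to 2.66. Tagln had its highest mean in the same group, 8.41 ± 4.0 CPM, with a 95% interval from -0.20 to 1.25. The interval of Acta2 leaves a change of several fold possible, and its KO TN libraries held from 6 to 154 counts. No gene of the 5 lists was called in liver either.

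Whether an effect differed between the 3 tissues was tested in a fit over all 48 libraries. For KO minus WT at RT, Smad7 was the 1 of 10 genes that differed (edgeR adjusted p = 0.00331; 2.06% of genes tested). Its log2 changes were 1.66 in BAT, -0.98 in eWAT and 0.24 in liver, so that KO libraries lay above all WT libraries in one fat depot and below them in the other. For TN minus RT in WT, 3 of 10 differed (15.0% of genes tested), Tgfb1 (edgeR adjusted p = 0.00496), Tgfbr1 (0.00933) and Tgfb3 (0.0349). None of these 3 was called in the fit with the replicate number as a block. The call of Tgfb3 ended in 8 of the 48 fits that left out 1 library, with WT RT replicate 18, WT TN replicate 6 or WT TN replicate 1 of BAT left out, or WT RT replicate 12, WT RT replicate 15, WT TN replicate 6, WT TN replicate 7 or WT TN replicate 8 of eWAT (edgeR adjusted p for Tgfb3 at most 0.0822). Tgfb1 changed by 1.45 in BAT, 0.16 in eWAT and -0.22 in liver, and Tgfbr1 by 0.41, -0.21 and -0.25. Tgfb3 changed by 1.58 in BAT, -0.12 in eWAT and 1.34 in liver, where no library held more than 2.81 CPM. Acta2 did not differ between tissues for KO minus WT at RT past the threshold (edgeR adjusted p = 0.117). None of the 10 genes differed for KO minus WT at TN (0.904% of genes tested) or for TN minus RT in KO (4.06%).

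**Figure D5:**
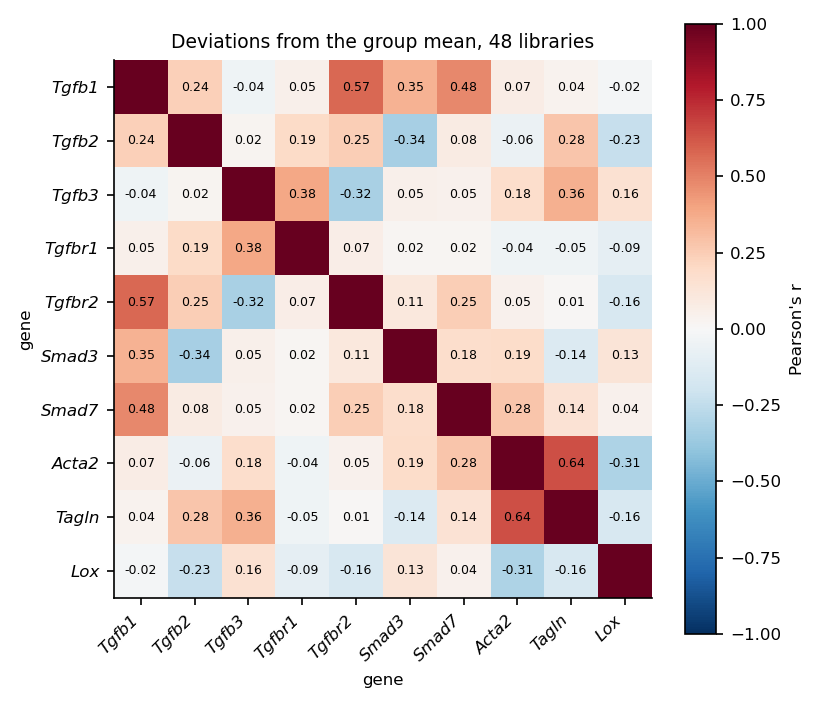
Pearson's r between each pair of the 10 genes over 48 libraries, on log2 CPM deviations from the mean of each library's own group. The highest value is that of Acta2 with Tagln (0.64), followed by Tgfb1 with Tgfbr2 (0.57) and with Smad7 (0.48).

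Variation between libraries of 1 group was described for the 10 genes as Pearson's r on log2 CPM (prior count of 2), after taking each library's deviation from its group mean. Libraries of 1 tissue share its cell mixture and depth, so the values describe and are given without a test. Acta2 and Tagln went together at 0.64 over the 48 libraries, and at 0.91 in BAT, 0.83 in eWAT and 0.53 in liver. So within groups of eWAT they went together, while their group means in KO and WT did not. Tgfb1 went with Tgfbr2 at 0.57 and with Smad7 at 0.48. Over the 48 libraries most other pairs lay near 0, and the lowest, Smad3 with Tgfb2, lay at -0.34. Within single tissues some pairs lay far from 0, and tissues could differ in sign. Tagln with Tgfb3 lay at 0.83 in BAT, -0.20 in eWAT and 0.31 in liver. Tgfb1 with Tgfb3 lay at 0.76 in eWAT, 0.19 in BAT and -0.36 in liver, and Smad3 with Tgfb2 at -0.70 in BAT, 0.04 in eWAT and -0.41 in liver.

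Among the 12995 genes of at least 1 CPM, those most like Acta2 in these deviations were Myl9 (r = 0.73), Lmod1 (0.64), Tagln (0.64), Sept8 (0.64) and Map4k4 (0.64), of which Myl9 and Lmod1 are smooth muscle genes. Those most like Tagln were Myl9 (0.72), Eln (0.72), Cers4 (0.71), Eml1 (0.68) and Osmr (0.67). For Tgfb1 the genes most like it were Wasf2 (0.78), Grk2 (0.76) and Kif26a (0.74), and for Smad7 they were Elmsan1 (0.65), Git1 (0.62) and Epha2 (0.61). Smad3 was nearest to Mtmr3 (0.68), Tgfbr1 to Odf2 (0.59) and Tgfbr2 to Luzp1 (0.71). For Tgfb2, Tgfb3 and Lox, which are low in liver, the nearest genes were Zfp423 (0.82), Alpk1 (0.65) and Smpd4 (0.70), with values by tissue that differed (0.88, 0.76 and 0.85 in liver, 0.28, 0.72 and 0.66 in BAT, and 0.60, 0.10 and 0.09 in eWAT).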

How the data were processed

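RNA sequencing of 48 mouse tissue samples was used as gene counts. Libraries came from Maxwell RSC simplyRNA extracts through the NEBNext Ultra kit and were read in pairs on an Illumina instrument, per the labels. The deposited values are raw counts per Ensembl gene and library. Per the submitters' processing notes, fastp, STAR 2.6.1d and featureCounts 1.5.0-p3 were used with GRCm38/mm10. The annotation release and the strand setting are not given in the sources used here. Symbols were found for 91.8% of 56748 identifiers, and named genes held at least 94.85% of each library's counts. No 2 libraries were identical.

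Groups came from tissue, genotype and housing in the labels. Each tissue (16 libraries) was fitted in R 4.3.3 with edgeR 4.0.16 (TMM, a minimum count of 10 in filterByExpr, group means, robust quasi-likelihood tests, two-sided). Tissues, and effects across tissues, were compared in a fit of all 48 libraries. Simulated data with known changes were used to check the fits within a tissue, for KO minus WT at RT. The fit of all 48 libraries was not checked in this way. Marker sums use plain library totals. The alternatives were DESeq2 1.42.0, RLE scaling, no filter, a filter of 1 CPM or more in 4 libraries, a fit of the 8 compared libraries, leave-one-out fits and a block on the replicate number. Leaving out 6 muscle-rich BAT libraries or 2 eWAT libraries was chosen after seeing the data. The 10 genes, the 5 gene lists and the marker lists were chosen with earlier results of these data known. Named from each list and comparison were up to 3 called genes per direction, those with the largest change and at least 1 CPM on average, except that 1 gene of the response list is not reported here. Genes that are low, Lox in liver and Tgfb2 in liver and BAT above all, have few counts, and their precision is set by them. The marker lists covered vascular smooth muscle, pericytes, hepatic stellate cells, fibroblasts and progenitors, endothelium, macrophages, mesothelium, epididymis, skeletal muscle, lymph node and B cells, hepatocytes and adipocytes.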

Additional observations from a re-analysis of the deposited data

Results flagged for a closer look

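In 8 of the 120 groups of 4 values (10 genes in 12 groups), 1 library lay far from the other 3, with its gap to the nearest past Dixon's 95% critical value as a share of the group's whole range, which chance gives in about 1 of 20 groups. In eWAT, Lox was at 330 CPM in WT TN replicate 8 against 138 to 159 CPM in the others, Smad7 was at 25.9 CPM in KO TN replicate 21 against 10.1 to 11.1 CPM, and Tgfb1 was at 24.7 CPM in KO TN replicate 5 against 29.2 to 29.5 CPM. In BAT, Tagln was at 20.6 CPM in KO RT replicate 9 against 8.74 to 10.5 CPM. In liver, Smad3 was at 16.7 CPM in KO TN replicate 4 against 10.5 to 11.4 CPM, Smad7 was at 9.50 CPM in KO TN replicate 2 against 12.6 to 12.7 CPM, and Lox was at 1.57 CPM in WT RT replicate 12 against at most 0.245 CPM and at 0.529 CPM in KO TN replicate 2 against 0.

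An effect differed between the 3 tissues for 4 genes, by edgeR's test of the difference over 48 libraries. For KO minus WT at RT it was Smad7 (edgeR adjusted p = 0.00331). For TN minus RT in WT it was Tgfb1 (edgeR adjusted p = 0.00496), Tgfbr1 (0.00933) and Tgfb3 (0.0349). With the replicate number as a block, none of these TN minus RT calls remained.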

How the results depend on the processing

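Of the 22 counts of the 10 genes called in a comparison, 15 kept within 1.5 times their value in every alternative run. A count of 0 that stayed 0 was taken as kept, and many of the counts were 0. None of the 66 log2 changes recomputed turned its direction. These were the changes between tissues and those with an unadjusted p under 0.05 or without overlap, so a turn was unlikely from the start. KO minus WT at RT in BAT had 1 gene called, Smad7, 0 with RLE scaling, with at least 1 CPM in 4 libraries and with only the 8 libraries compared, and 0 to 2 with a library left out. KO minus WT at RT in eWAT had 1, and 2 with at least 1 CPM in 4 libraries, 3 with DESeq2, 2 with only the 8 libraries compared and 0 to 2 with a library left out. At TN it had 1, and 0 without a filter or with only the 8 libraries compared, and 0 to 1 with a library left out. TN minus RT in KO had 0 in BAT, and 3 with DESeq2, 1 with only the 8 libraries compared and 0 to 2 with a library left out. It had 0 in eWAT, and 1 with DESeq2 and 0 to 1 with a library left out. The tissue by KO minus WT effect at RT had 1, and 1 to 2 with a library left out. The cause was not tested. With the replicate number as a block, the tissue by TN minus RT effect in WT had 0 genes called in place of 3, and BAT minus eWAT kept 7 of its 10 genes without Tgfb2, Smad7 and Tagln. Liver minus eWAT then gained Smad7, and liver minus BAT lost Tgfb1 and gained Tgfb2. Of 35 same-numbered pairs of samples, 1 had a correlation over 0.1, the median was 0.0151 and the range was -0.508 to 0.114. The median of differently numbered pairs was -0.0019. A low correlation between tissues cannot show that samples came from different mice, so whether same-numbered samples were paired was not settled. The main fits left the number out. Among all genes, DESeq2 called 981 for KO minus WT at RT in BAT where edgeR called 16, 1509 in eWAT where edgeR called 821, and 203 in liver where edgeR called 15. At TN it called 20 in BAT, 675 in eWAT and 1111 in liver, where edgeR called 0, 111 and 560. For TN minus RT it called 100 in WT and 1154 in KO eWAT, against 0 and 330, and 75 in WT and 362 in KO liver, against 4 and 20. For the interaction it called 17 in liver, 21 in BAT and 12 in eWAT, against 0 in each. Without the 6 muscle-rich BAT libraries edgeR called 344 genes for KO minus WT at RT and 867 for TN minus RT in KO, where 2735 were called with all. Without the 2 eWAT libraries that stood apart it called 357 for KO minus WT at RT, 285 at TN and 51 for TN minus RT in WT. With plain totals, 11 of 120 group levels moved past 1 SD, all in BAT. Low counts limit Lox in liver and Tgfb2 in liver and BAT.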

Other observations

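Marker lists that were not given in full above were read in the same libraries, as summed CPM of plain totals. Hepatic stellate cells are known as a main source of myofibroblasts in liver, and their 7 markers ran from 58.7 to 184 CPM there, with none called in any liver comparison by edgeR. In BAT the same list ran from 291 to 499 CPM at RT and from 524 to 1029 CPM at TN, and 2 of its 5 tested genes were called as higher at TN in WT. It shares Rgs5 and Pdgfrb with the pericyte list. These BAT sums include the shift of plain totals between TN and RT given above. In eWAT the 7 pericyte markers ran from 198 to 446 CPM, the 7 endothelial markers from 211 to 666 CPM and the 8 fibroblast and progenitor markers from 1432 to 3900 CPM, and none of these genes was called between KO and WT at either temperature by edgeR. Hepatocyte markers ran from 646 to 6905 CPM in eWAT and from 8.10 to 2718 CPM in BAT. In eWAT at RT they ran from 1263 to 2963 CPM in WT and from 2453 to 6905 in KO. All 6 had log2 changes above 0 there (median 1.08) without a call. At TN they ran from 646 to 1866 CPM in WT and from 1076 to 2099 in KO, and 1 of 6 was above 0 (median -1.04), without a call. Their part in the eWAT results was not tested. Lymph node and B cell markers were at most 15.8 CPM in any library. The markers shared by white and brown adipocytes ran from 8888 to 12730 CPM in eWAT and from 2614 to 5242 CPM in BAT, against 12.1 to 175 CPM in liver.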
